A study of Mus musculus with 36 samples.

Results

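The transcripts described here are those of 7 genes: the nuclear receptors Nr4a1, Nr4a2 and Nr4a3, the zinc-finger factors Egr1, Egr2 and Egr3, and the corepressor gene Nab2. They were named by symbol, with earlier results of these data known, and all 7 were listed in each of the 4 deposited tables, which together list 56925 genes. The 36 libraries are RNA sequencing of mouse natural killer (NK) cells, in 12 groups of 3 biological replicates. Values are TPM, a unit that corrects the reads of a gene for its length and scales each library to a common total, and they are given as mean ± SD with n = 3 unless the 3 libraries are listed. Levels were compared only within a table.

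The subset table holds mature splenic NK cells, CD27-negative and CD11b-positive, from wild-type C57BL/6 mice (WT) and from B2m-/- mice (KO), which lack the light chain of MHC class I. TP cells were sorted for Ly49C, Ly49I and NKG2A, SP cells for Ly49I without the other receptors, and TN cells for none of these inhibitory receptors. The ionomycin table holds NK cells purified from WT splenocytes after 22 hours with either ionomycin, which lets calcium into cells, or vehicle. The antibody table holds NK cells isolated from WT splenocytes after 48 hours in medium or on plates coated with antibodies to 2 activating receptors, either NKp46 with NKG2D (the NKG2D pair) or NKp46 with DNAM-1 (the DNAM-1 pair). The tumour table holds CD27-negative, CD11b-positive NK cells from subcutaneous tumours of MC38, a mouse colon carcinoma line, here without B2m, 10 days after inoculation of C57BL/6 mice; it has no comparison group. All groups but the KO subsets carry intact B2m by label. Ages and sexes of the mice are not given in the sources used here.

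NR4A proteins are orphan nuclear receptors whose activity is set mainly by how much of them is made. EGR proteins bind GC-rich sites through zinc fingers, and NAB2 binds EGR1 to EGR3 and represses their output. In lymphocytes, transcripts of both families rise within a short time of antigen receptor signalling, NR4A genes through calcium, MEF2 and CREB and EGR genes through ERK, serum response factor and NFAT, and both families are linked to T cell anergy and exhaustion. NAB2 is itself induced by EGR factors and closes a feedback loop.

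B2m was at 2915 to 3420 TPM in the 9 WT subset libraries and at 73.9 to 128 TPM in the 9 KO libraries. All 8 NK markers were present in every group, and Cd27 transcripts were present at 84.5 to 239 TPM in the subset libraries, although those cells were sorted as negative for the CD27 protein. The tumour libraries held B2m at 4554 ± 634 TPM, although their column names carry the terms B2MKO and SP, neither of which the titles explain. Whether these cells are of the SP sort or are all CD27-negative, CD11b-positive NK cells is not given in the sources used here. In the antibody table the group named in the sample title differs from the group named in the data column for 6 of the 9 libraries. The column names, which are attached to the values, were followed, and every antibody result below rests on that choice. With the titles as groups, 0 members were called for either pair. Over all tested genes that setting called 0 for the NKG2D pair and 1 for the DNAM-1 pair. Each title group mixes a medium column, an NKG2D pair column and a DNAM-1 pair column that carry the same replicate number. By the column names it therefore compares replicate numbers and not treatments. TPM keep no record of depth, and the genes above 0 ran from 12290 to 18096 per library. In bulk libraries fewer cells with a transcript and less transcript per cell cannot be told apart.

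The promoters of the NR4A genes are shown because all 3 genes stood higher with ionomycin, Nr4a2 and Nr4a3 past the threshold, and that of Egr2 is shown beside them as an EGR gene that shares some of their motifs. RefSeq promoter sequences on GRCm38.p6 were matched for 5 of the 7 members: Nr4a1, Nr4a2, Nr4a3, Egr2 and Nab2. Each line gives the 250 bases before the annotated start on the strand of the gene, 5′ to 3′, with motif matches in capitals. Nr4a1 is at chr15:101266596-101266845 on the plus strand, Nr4a2 at chr2:57124004-57124253 on the minus strand, Nr4a3 at chr4:48045055-48045304 on the plus strand, and Egr2, 1 of its 5 listed starts, at chr10:67537619-67537868 on the plus strand.
Nr4a1: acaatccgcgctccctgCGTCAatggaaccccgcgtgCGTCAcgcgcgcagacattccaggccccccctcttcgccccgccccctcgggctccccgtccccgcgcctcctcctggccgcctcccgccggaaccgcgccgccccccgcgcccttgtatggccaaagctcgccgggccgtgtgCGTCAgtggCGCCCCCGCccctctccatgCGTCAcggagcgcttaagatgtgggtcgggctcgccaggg
Nr4a2: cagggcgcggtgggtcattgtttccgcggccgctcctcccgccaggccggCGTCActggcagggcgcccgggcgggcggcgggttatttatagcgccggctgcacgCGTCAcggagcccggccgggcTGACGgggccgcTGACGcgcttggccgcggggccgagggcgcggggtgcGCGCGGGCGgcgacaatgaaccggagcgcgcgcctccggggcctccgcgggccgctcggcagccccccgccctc
Nr4a3: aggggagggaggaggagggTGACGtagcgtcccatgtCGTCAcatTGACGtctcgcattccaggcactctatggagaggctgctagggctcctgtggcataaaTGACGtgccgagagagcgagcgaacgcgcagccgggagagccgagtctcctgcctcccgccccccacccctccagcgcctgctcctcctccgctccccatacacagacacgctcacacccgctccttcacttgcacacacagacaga
Egr2: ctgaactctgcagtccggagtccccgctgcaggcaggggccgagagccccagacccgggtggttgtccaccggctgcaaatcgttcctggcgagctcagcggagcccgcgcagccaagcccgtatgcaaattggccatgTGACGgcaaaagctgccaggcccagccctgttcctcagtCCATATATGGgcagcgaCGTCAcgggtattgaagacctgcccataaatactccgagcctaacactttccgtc

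The motif TGACG, the core of the cyclic AMP response element that CREB binds, was found 4 times in each of the 3 NR4A windows, counting both strands (CGTCA on the other strand). Of 32544 RefSeq promoters of the same 300-base length, 20.9% held it at least once and 0.234% at least 4 times. The EGR site GCGNGGGCG was found once in Nr4a1, as CGCCCCCGC on the other strand, and once in Nr4a2, as GCGCGGGCG. It was present in 5.60% of all promoters. The printed Egr2 window held 2 TGACG cores and 1 serum response element (CArG box), CCATATATGG, a motif in 1.64% of promoters. The 5 Egr2 windows differ: 3 that overlap one another held these same matches, the window from position 67537316 held another CArG box, CCTTTTTTGG, and no TGACG, and the window from position 67535249 held no match. None of the matches overlapped another. The full element TGACGTCA (1.8% of promoters), the AP-1 site TGANTCA (7.79%), the NR4A monomer site AAAGGTCA (1.52%) and the MEF2 motif (0.559%) had no match in any member window, and the Nab2 window held no match of the 7 motifs searched. A match describes letters in this window only.

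In freshly sorted splenic subsets the 6 transcription factors were low and Nab2 was moderate. Group means ran from 7.33 to 23.1 TPM for Nr4a1, from 7.16 to 16.3 for Nr4a2, from 7.26 to 15.1 for Nr4a3, from 2.51 to 16.7 for Egr1, from 1.33 to 10.4 for Egr2 and from 1.98 to 10.4 for Egr3. Nab2 lay between 41.3 and 54.6 TPM. No NR4A gene dominated: in WT TP cells Nr4a1 gave 30.2%, Nr4a2 38.6% and Nr4a3 31.1% of the summed NR4A TPM. In WT SP cells Nr4a1 gave 43.4%.

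**Figure D1:**
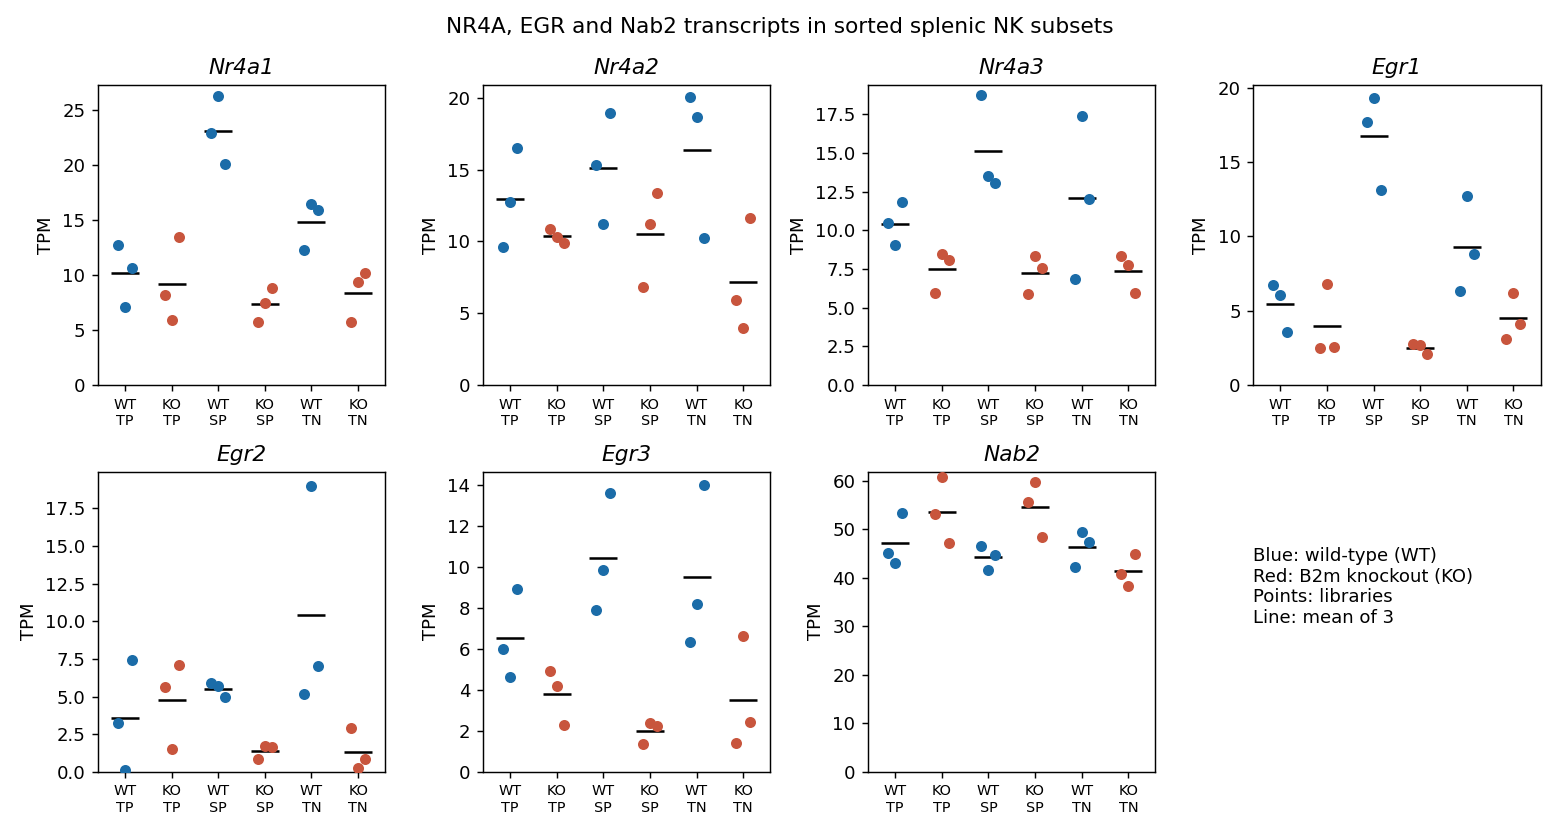
TPM of the 7 transcripts in the 18 sorted splenic libraries, one panel per gene with its own axis from 0; blue points are WT and red points KO libraries, and the line is the mean of 3. Nr4a1 and Egr1 stand highest in WT SP cells (23.1 and 16.7 TPM on average), and the group means of Nab2 lie between 41.3 and 54.6 TPM.

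In SP cells Egr1, Nr4a1 and Egr3 were lower in KO than in WT mice. Egr1, the most studied immediate-early member of its family, was at 17.7, 19.3 and 13.1 TPM in the 3 WT SP libraries and at 2.75, 2.70 and 2.07 TPM in the KO SP libraries. Nr4a1, which encodes NUR77, a common reporter of antigen receptor signalling, was at 22.9, 26.2 and 20.1 TPM in WT SP and at 5.71, 7.49 and 8.78 TPM in KO SP cells. Egr3, which acts with Egr2 in T cell anergy, was at 7.90, 9.83 and 13.6 TPM in WT SP and at 1.37, 2.37 and 2.21 TPM in KO SP cells. For these 3 genes every KO SP library lay below every WT SP library.

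Differences are given as KO minus WT on the log2(TPM + 1) scale, with the standard error, from limma fitted over the 12018 genes tested in the table, and p-values carry the Benjamini-Hochberg adjustment over all of them. In SP cells 3 of the 7 members were called at an adjusted p under 0.05, all lower in KO, where 1.35% of all tested genes were called and 0.582% were called lower. Egr1 fell by 2.33 (SE 0.369, adjusted p 0.00201), a ratio of 0.199 on this scale. Nr4a1 fell by 1.54 (SE 0.300, adjusted p 0.0117). Egr3 fell by 1.93 (SE 0.426, adjusted p 0.0304). An exact permutation test of 3 libraries against 3 cannot give a p under 0.1, so these calls rest on the model.

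The other members of the 2 families also stood lower in KO SP cells without being called. Nr4a3 was at 18.8, 13.5 and 13.1 TPM in WT SP and at 5.89, 8.31 and 7.58 TPM in KO SP cells (difference -0.96, adjusted p 0.141). Egr2 was at 5.90, 5.67 and 4.96 TPM in WT SP and at 0.83, 1.73 and 1.65 TPM in KO SP cells (difference -1.46, adjusted p 0.403). Neither gene overlapped between the groups. Nr4a2 overlapped, with 11.2 to 19.0 TPM in WT SP and 6.86 to 13.4 TPM in KO SP cells (difference -0.51, adjusted p 0.611). Nab2 went the other way: 41.5 to 46.5 TPM in WT SP and 48.5 to 59.8 TPM in KO SP cells, with no overlap and a difference of 0.30 (adjusted p 0.406). Over the 7 members, 5 were lower and 1 was higher in KO SP without overlap, against 7.78% and 11.1% of all tested genes.

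The Egr1 call was kept in all 13 alternative settings, with an adjusted p of 0.00124 to 0.0159. Nr4a1 was not called without WT SP replicate 2 (adjusted p 0.0646), KO SP replicate 1 (0.0781) or KO SP replicate 2 (0.0505), while Egr3 was not called in 7 settings. These include leaving out WT SP replicate 2 (0.0854), WT SP replicate 3 (0.111), KO SP replicate 1 (0.137), KO SP replicate 2 (0.0807) or KO SP replicate 3 (0.0857).

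In TP and TN cells limma called 0 members between the genotypes. In TP cells, where 1.59% of all genes were called, differences ran from -0.66 (Egr3) to 0.58 (Egr2). There 0 members had an unadjusted p under 0.05, against 11.8% of all genes, and 1 member, Nr4a3, was lower without overlap (difference -0.43, adjusted p 0.609), against 7.14%. Nr4a1 was at 12.7, 7.11 and 10.7 TPM in WT TP and at 8.17, 5.88 and 13.4 TPM in KO TP cells, so the groups overlapped. The 3 KO TP libraries also carried neutrophil markers at a summed 47.2 to 173 TPM, with 1 of 5 markers at 0 in all 3, against 0 TPM for all 5 markers in WT TP cells. Their 8 B cell and plasma cell markers summed to 404 to 683 TPM, against 167 to 181 TPM in WT TP cells, and Igkc averaged 221 and 28.2 TPM and Igha 135 and 0.0967 TPM. T cell markers summed to 12.5 to 17.6 TPM in KO TP and to 3.35 to 4.96 TPM in WT TP cells. The monocyte, macrophage and dendritic cell list was lower in KO TP cells (422 to 439 against 489 to 594 TPM), and most of it was Itgax, which NK cells also express (367 and 493 TPM on average). Within that list Lyz2 (31.5 and 10.4 TPM on average), Cd74 (16.0 and 9.62), H2-Aa (9.46 and 6.61) and Cd14 (0.807 and 0.37) were higher in KO TP cells. Csf1r (1.27 and 2.21), Cd68 (6.60 and 6.81) and Adgre1 (0.293 and 0.3) were lower, as Itgax was. None of these 4 sums overlapped between the genotypes, and their part in the comparison was not tested.

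In TN cells 0.716% of all genes were called and all 7 members were lower in KO than in WT by the mean, 5 of them at an unadjusted p under 0.05, against 10.5% of all genes. Egr2 was at 5.16, 19.0 and 7.03 TPM in WT TN and at 2.90, 0.23 and 0.85 TPM in KO TN cells (difference -2.27, unadjusted p 0.00342, adjusted p 0.180). Nr4a2 was at 20.1, 18.7 and 10.3 TPM in WT TN and at 5.92, 3.95 and 11.6 TPM in KO TN cells (difference -1.15, adjusted p 0.210). Egr3 differed by -1.34 (adjusted p 0.226), Egr1 by -0.90 (adjusted p 0.387) and Nr4a1 by -0.78 (adjusted p 0.350). Groups did not overlap for Nr4a1, Egr1 and Egr2, against 5.76% of all genes lower without overlap. In WT TN cells replicate 2 stood far above the other libraries for Egr2. Sums of other cells' markers were lower in KO TN cells too, without overlap: B cell and plasma cell markers were at 281 to 337 TPM in WT TN and at 216 to 237 TPM in KO TN cells, mostly Ighm (281 and 220.0 TPM on average). The monocyte, macrophage and dendritic cell list was at 876 to 894 TPM in WT TN and at 598 to 704 TPM in KO TN cells, mostly Itgax (865 and 656 TPM on average). In WT TN cells both sums also lay above those of WT TP and WT SP cells. The part of these markers in the member values was not tested.

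Whether the genotype difference itself changed from subset to subset was tested with limma as a difference of differences, and 0 members passed. For SP against TP cells 0.0166% of all genes were called, and 3 members had an unadjusted p under 0.05, against 4.41% of all genes. The difference of differences was -1.87 for Egr1 (95% interval -2.97 to -0.77, unadjusted p 0.00236, adjusted p 0.867) and -1.37 for Nr4a1 (-2.27 to -0.47, unadjusted p 0.00503, adjusted p 1.00). For TN against SP cells 0% of all genes were called, and 2 members had an unadjusted p under 0.05, against 5.62% of all genes. Egr1 gave 1.43 there (unadjusted p 0.0141, adjusted p 0.859) and Nab2 -0.46 (unadjusted p 0.0292, adjusted p 0.865). For TN against TP cells, where 0.0250% of all genes were called and 6.27% had an unadjusted p under 0.05, 1 member had one: Egr2 gave -2.84 (unadjusted p 0.00782, adjusted p 0.643).

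Within WT mice SP cells had the highest Egr1 and Nr4a1. Egr1 was at 6.74, 6.09 and 3.54 TPM in TP cells, at 6.31, 12.7 and 8.80 TPM in TN cells and, as given above, at 13.1 TPM or more in every SP library. The SP libraries of both genes lay above all TP and all TN libraries. For SP against TP cells limma called 0 members, where 0.191% of all genes were called, and 2 members had an unadjusted p under 0.05, against 7.71% of all genes: Egr1 differed by 1.48 (unadjusted p 0.000952, adjusted p 0.181) and Nr4a1 by 1.14 (unadjusted p 0.00153, adjusted p 0.229). Nr4a3 was higher in all SP than in all TP libraries too, so 3 members were higher without overlap, against 5.19% of all genes.

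For TN against SP cells 0 members and 0.383% of all genes were called, and 1 member had an unadjusted p under 0.05, against 12.1% of all genes. Egr1 was lower in TN cells by 0.82 (unadjusted p 0.0411, adjusted p 0.390) and Nr4a1 by 0.61 (unadjusted p 0.0598, adjusted p 0.438), both without overlap, against 6.11% of all genes lower. For TN against TP cells 0 members and 1.31% of all genes were called. Of the 7 members 1 had an unadjusted p under 0.05, against 12.5% of all genes: Egr2 differed by 1.54 (unadjusted p 0.0338, adjusted p 0.343).

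In KO mice limma called 0 members between any subsets. For SP against TP cells 0.200% of all genes were called, and 0 members had an unadjusted p under 0.05, against 2.93% of all genes. For TN against TP cells 0.524% of all genes were called, and 1 member, Nab2, had an unadjusted p under 0.05, against 6.43%. For TN against SP cells 0.0416% were called, and again Nab2 alone had one, against 2.77%. KO SP cells held the lowest mean of Egr1 (2.51 ± 0.379 TPM), below KO TP (3.94 ± 2.49 TPM) and KO TN cells (4.49 ± 1.58 TPM).

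Nab2 was lower in KO TN cells (38.3 to 44.9 TPM) than in KO TP cells (47.1 to 60.7 TPM), without overlap, against 7.49% of all genes lower (difference -0.36, unadjusted p 0.0157, adjusted p 0.534). It was also lower than in KO SP cells (48.5 to 59.8 TPM), without overlap, against 5.80% of all genes lower (difference -0.39, unadjusted p 0.0100, adjusted p 1.00). Between the same groups Egr1 was higher in all KO TN than in all KO SP libraries, against 5.09% of all genes (difference 0.61, adjusted p 1.00).

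Ordered by mean, Nr4a1 ran from WT SP through WT TN, WT TP, KO TP and KO TN to KO SP cells, and only the step from WT SP to WT TN had no overlap. Egr1 had the same first 3 places, then KO TN, KO TP and KO SP, again with only the first step free of overlap. Nr4a3 had all 3 WT groups above all 3 KO groups, with no overlap between WT TP and KO TP cells. For Nr4a2, Egr2, Egr3 and Nab2 every neighbouring pair of groups overlapped.

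Over the 18 subset libraries, which fall into 6 groups of a single table so that group differences enter every value, Nr4a1 varied with Egr1 (Pearson r 0.772), Nr4a3 with Egr1 (0.793) and Egr1 with Egr3 (0.763), while Nr4a2 with Egr1 gave 0.330 and Nr4a1 with Nab2 -0.364. Among the 9776 genes whose mean reached 5 TPM, the gene most like Nr4a1 was Nkiras2 (0.868), followed by Atf4 (0.819) and Cd55 (0.810). The gene most like Nr4a2 was Per3 (0.820), that most like Nr4a3 was Setbp1 (0.862), and that most like Egr1 was Usp40 (0.835). Egr3 was most like Tnfrsf9 (0.842), which encodes the costimulatory receptor 4-1BB. Egr2 was most like Eif3j1 (0.772) and Nab2 most like Snx33 (0.767). These are the highest values of a search over 9776 genes in 18 libraries, which alone yields high values, and none was tested.

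Other immediate-early genes were taken as a list, with genes such as Fos, Junb and Ier2. Of 23 tested, limma called 0 between KO SP and WT SP cells, where 1.35% of all genes were called. At that share 0 of 23 does not set the list apart from all genes. In the list 10 genes were higher and 13 lower, with a median difference of -0.05 against 0.03 for all genes. Fos was at 3.90 ± 1.20 TPM in WT SP and 2.88 ± 2.66 TPM in KO SP cells. Genes of the calcium, calcineurin and NFAT route (12 tested), of the ERK and serum response factor route (11 tested) and the partner and corepressor genes (8 tested, among them Nab1) had 0 called in any of the 3 genotype comparisons. Egr4, the remaining EGR gene, was listed at 0 in all 18 subset libraries.

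Among 17 tested genes linked to NR4A or EGR factors in anergic or exhausted lymphocytes, Tnfrsf9 and Tigit were called in SP cells. Tnfrsf9 fell from 97.1 ± 24.8 to 27.6 ± 4.85 TPM (difference -1.76, adjusted p 0.000906), and it also fell in TP (-1.43, adjusted p 0.00571) and TN cells (-1.16, adjusted p 0.0471). Tigit, an inhibitory receptor gene, rose by 1.82 in SP (adjusted p 0.00932) and by 2.62 in TP cells (adjusted p 0.000250). Heat shock genes moved with the genotype as well. All 8 stood higher in KO SP than in WT SP cells, with a median of 1.19, and 4 were called: Hsph1 (1.92, adjusted p 0.0134), Hspa8 (1.29, adjusted p 0.0139), Dnajb1 (1.15, adjusted p 0.00957) and Hspa5 (0.51, adjusted p 0.00822). Their medians were 1.06 in TP and 1.06 in TN cells, with 2 and 3 called. Neutrophil markers summed to 0 to 3.16 TPM in KO SP and to 0 to 1.11 TPM in WT SP cells, and B cell and plasma cell markers to 197 to 227 and 181 to 191 TPM. T cell markers summed to 8.15 to 14.8 and 0 to 13.1 TPM. The monocyte, macrophage and dendritic cell list was lower in KO SP cells without overlap (509.9 to 538 against 590.2 to 722 TPM), mostly Itgax (515 and 641 TPM on average), and Cd27 was higher without overlap (144 to 168 against 113 to 122 TPM). The part of these genes in the member differences was not tested.

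**Figure D2:**
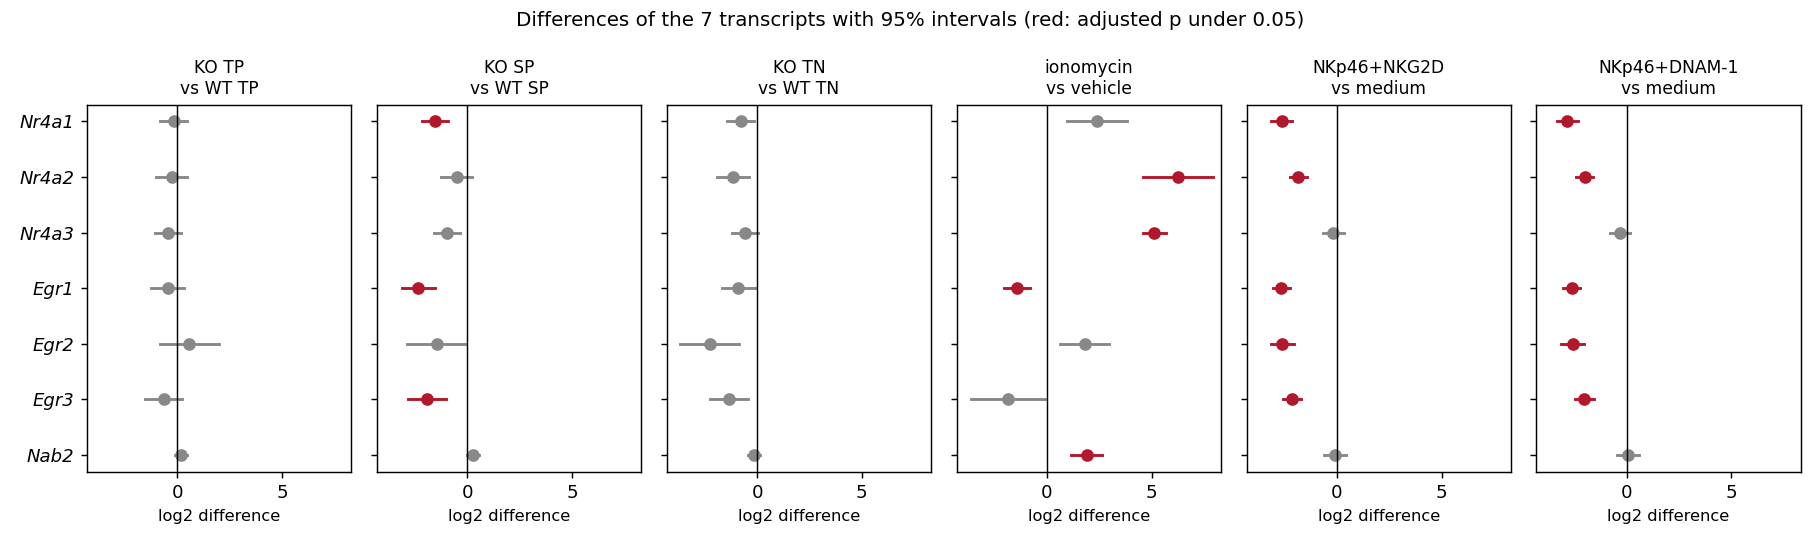
Log2 differences of the 7 transcripts on the log2(TPM + 1) scale, first group minus second, with 95% intervals from limma in 6 comparisons; red marks an adjusted p under 0.05. In SP cells Egr1, Nr4a1 and Egr3 are red and lower in KO, with ionomycin Nr4a2 (6.26) and Nr4a3 (5.13) lie far to the right while Egr1 lies to the left, and with antibodies 5 of 7 transcripts lie to the left.

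With ionomycin Nr4a2, Nr4a3 and Nab2 rose and Egr1 fell. Nr4a2, known in immune cells as an inducible factor that shares its DNA site with its paralogs, was at 1139, 1618 and 1287 TPM with ionomycin and at 3.21, 29.8 and 39.7 TPM with vehicle. Nr4a3 was at 473, 621 and 584 TPM with ionomycin and at 13.3, 13.9 and 17.8 TPM with vehicle. Egr1 was lower, at 61.7, 45.1 and 59.0 TPM with ionomycin and at 134, 122 and 202 TPM with vehicle. The 2 groups stood apart in all 3 genes.

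Of 14372 genes tested, 2.91% were called, 1.66% higher and 1.25% lower, and 4 of the 7 members were among them, 3 higher and 1 lower. Nr4a3 rose by 5.13 (SE 0.235, adjusted p 7.21e-05), the smallest p of all genes tested. Nr4a2 rose by 6.26 (SE 0.733, adjusted p 0.00515). Nab2 rose by 1.90 (SE 0.326, adjusted p 0.0205), from 19.0, 42.1 and 23.2 TPM to 98.5, 107 and 100 TPM. Egr1 fell by 1.43 (SE 0.272, adjusted p 0.0300).

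The remaining members were not called. Nr4a1 was at 128, 177 and 147 TPM with ionomycin and at 9.40, 27.5 and 78.5 TPM with vehicle (difference 2.39, SE 0.624, adjusted p 0.0915). Egr2 was at 31.4, 35.5 and 35.8 TPM with ionomycin and at 4.52, 7.51 and 20.8 TPM with vehicle (difference 1.80, adjusted p 0.126). Vehicle replicate 3 was the highest vehicle library for all 6 transcription factors. Egr3 was at 0, 3.64 and 0.57 TPM with ionomycin and at 3.98, 4.49 and 11.4 TPM with vehicle (difference -1.85, adjusted p 0.310). All 7 members were free of overlap between the groups, 5 higher and 2 lower, against 20.1% of all genes.

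Without vehicle replicate 3 the calls of Nr4a1 (3.13, adjusted p 0.00804) and Egr2 (2.36, adjusted p 0.0153) were added, which made 6. Leaving out an ionomycin library lowered the count to 2 without replicate 1 and to 1 without replicate 2 or replicate 3: Egr1 and Nab2 lost their calls in all 3 of these fits (adjusted p 0.117 to 0.164) and Nr4a2 in 2 of them (0.0565 and 0.0531), with a difference of at least 6.12 in both. Without vehicle replicate 2 Egr1 alone lost its call (0.0737). Nr4a3 was called in all 12 alternative settings. The count over all genes, 418, moved as well: it was 43 to 80 without an ionomycin library, 143 without vehicle replicate 2, and 635 and 712 without vehicle replicate 1 and replicate 3.

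Paralog shares differed with ionomycin. Summed NR4A transcripts were at 77.7 ± 55.3 TPM with vehicle and at 2058 ± 339 TPM with ionomycin. Nr4a1 held 44.2% ± 11.8 of them with vehicle and 7.32% ± 0.0398 with ionomycin, and Nr4a2 held 27.8% ± 14.8 and 65.4% ± 1.61. The share of Nr4a3 was 28.0% ± 20.5 and 27.3% ± 1.62. Summed EGR transcripts were at 170 ± 55.7 TPM with vehicle and 90.9 ± 5.92 TPM with ionomycin, of which Egr1 held 90.4% and 60.5% and Egr2 5.89% and 37.8%. In rank of mean TPM among genes above 0, Nr4a2 stood at place 6425 with vehicle and 116 with ionomycin.

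Around the members, 4 of 26 other immediate-early genes were called with ionomycin, all higher: Rgs1 (2.54, adjusted p 0.00144), Fosl2 (1.94, adjusted p 0.00294), Ppp1r15a (1.69, adjusted p 0.00517) and Tnfaip3 (1.56, adjusted p 0.0215). Their list had a median of 0.54 against -0.0044 for all genes. Of 20 genes linked to NR4A or EGR factors, 6 were called, all higher, led by Irf4 (adjusted p 0.00562), which was listed at 0 in all 3 vehicle libraries and at a mean of 26.6 TPM with ionomycin, then Lag3 (4.35, adjusted p 0.00990) and Tigit (3.25, adjusted p 0.00739), and the list median was 1.37. In the calcium and NFAT list 1 of 13 genes was called, Hdac7, which encodes a class IIa deacetylase (-1.76, adjusted p 0.0165), and in the ERK list 1 of 11, Elk3 (1.21, adjusted p 0.0179). Of 8 partner and corepressor genes 0 were called by limma, Nab1 included.

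Ncr1, which encodes NKp46, was at 795 ± 280 TPM with vehicle and at 123 ± 25.6 TPM with ionomycin. NK markers summed to 7557 to 13995 TPM with vehicle and to 5616 to 7206 TPM with ionomycin, and neutrophil markers to 0 to 278 and 0 to 118 TPM, with 1 and 2 of the 5 markers at 0 throughout. Other lists were higher with ionomycin without overlap. T cell markers summed to 2.24 to 7.87 TPM with vehicle and to 12.8 to 25.3 TPM with ionomycin, with 3 of the 6 listed at 0 throughout in each group. Monocyte, macrophage and dendritic cell markers summed to 90.7 to 237 and 281 to 425 TPM, mostly Itgax (132 and 333 TPM on average), with 3 and 1 of 8 at 0 throughout. Epithelial markers were at 0 with vehicle and at 0.30 to 1.83 TPM with ionomycin. Cd27 was at 38.0 to 123 and 293 to 367 TPM. B cell and plasma cell markers overlapped, at 54.1 to 201 and 80.3 to 118 TPM. Their part in the member values was not tested.

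**Figure D3:**
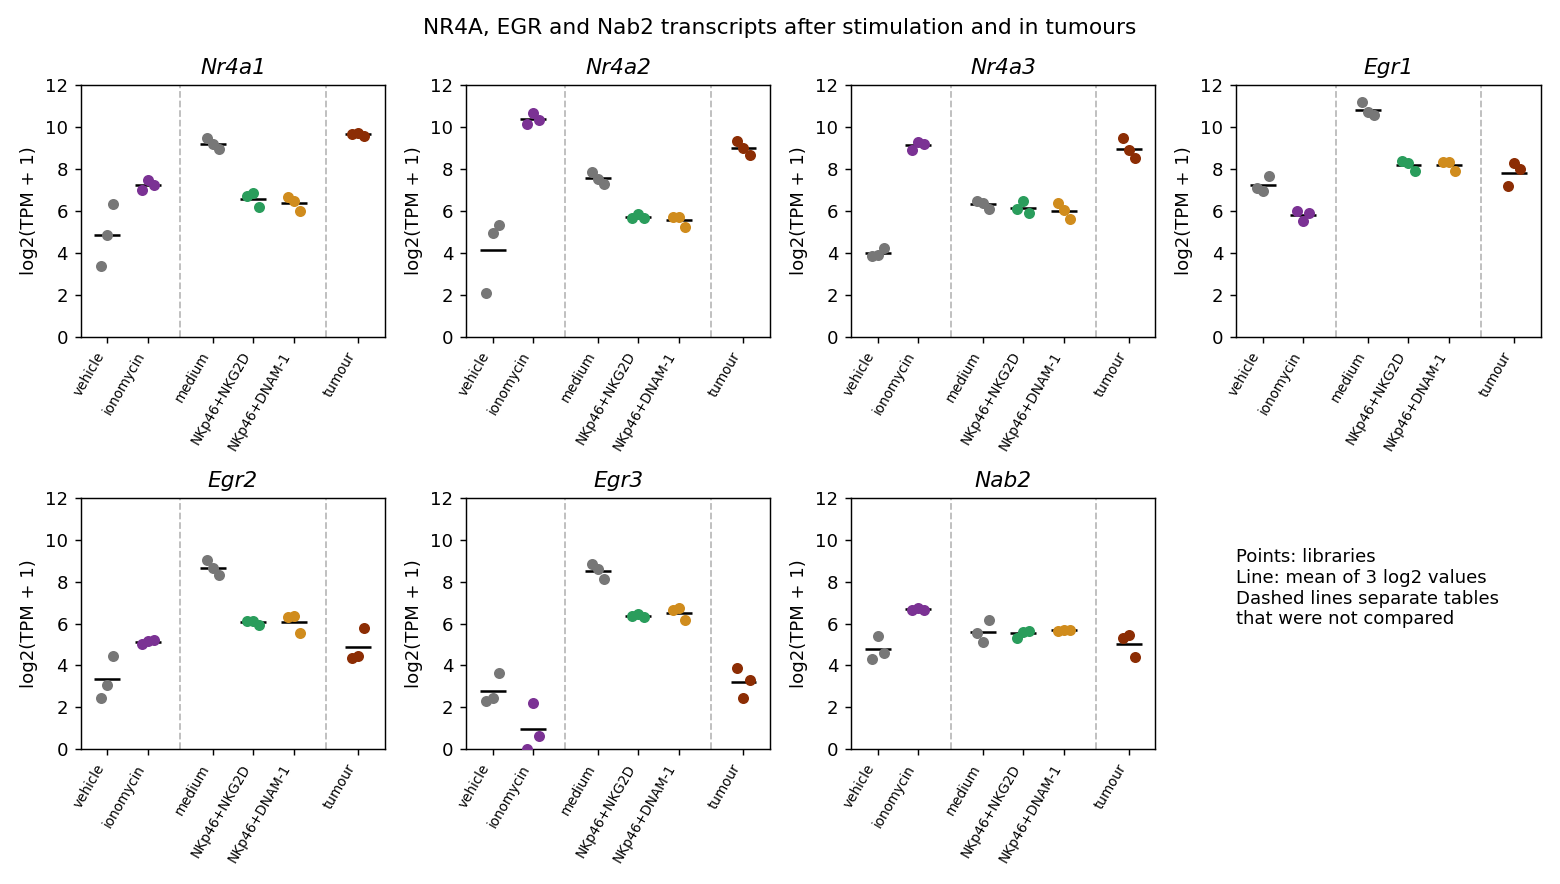
log2(TPM + 1) of the 7 transcripts in the ionomycin, antibody and tumour libraries; points are libraries, lines are means of 3, and dashed lines separate tables whose levels were not compared. Nr4a2 and Nr4a3 stand far above vehicle with ionomycin, and the 6 antibody libraries lie below the 3 medium libraries for Nr4a1, Nr4a2, Egr1, Egr2 and Egr3 but not for Nr4a3 or Nab2.

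In the antibody experiment Egr1, Egr2, Egr3, Nr4a1 and Nr4a2 were highest in medium. Egr1 was at 2312, 1692 and 1504 TPM in medium, place 67 of the 17372 genes above 0. It was at 329, 309 and 234 TPM with the NKG2D pair, and at 324, 320 and 238 TPM with the DNAM-1 pair. Nr4a1 was at 709, 576 and 500 TPM in medium, at 103, 113 and 71.0 TPM with the NKG2D pair, and at 100, 87.9 and 61.6 TPM with the DNAM-1 pair. For both genes all 6 antibody libraries lay below all 3 medium libraries, and the libraries of the 2 antibody pairs overlapped.

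With the NKG2D pair 5 of the 7 members were called, all lower than in medium, where 0.431% of 13689 tested genes were called and 0.278% were called lower. The same 5 were lower without overlap, against 9.84% of all genes. Egr1 fell by 2.64 (SE 0.188, adjusted p 0.000472), Nr4a1 fell by 2.63 (SE 0.223, adjusted p 0.000596) and Egr2 fell by 2.59 (SE 0.239, adjusted p 0.000735). Egr3 fell by 2.14 (SE 0.199, adjusted p 0.000740) and Nr4a2 fell by 1.83 (SE 0.188, adjusted p 0.00150). Nr4a3 (difference -0.16, 95% interval -0.64 to 0.32, adjusted p 0.762) and Nab2 (-0.08, -0.60 to 0.44, adjusted p 0.902) were not called.

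With the DNAM-1 pair Nr4a1, Nr4a2, Egr1, Egr2 and Egr3 were again the 5 called, all lower, where 0.782% of all genes were called and 0.497% were called lower. They did not overlap with medium, against 11.6% of all genes lower. Nr4a1 fell by 2.84 (SE 0.223, adjusted p 0.000519), Egr1 fell by 2.63 (SE 0.188, adjusted p 0.000519) and Egr2 fell by 2.58 (SE 0.239, adjusted p 0.00119). Egr3 fell by 2.02 (adjusted p 0.00133), and Nr4a2, at a ratio of 0.250 to medium on this scale, fell as well (adjusted p 0.00119). Nr4a3 differed by -0.30 (95% interval -0.78 to 0.19, adjusted p 0.510) and Nab2 by 0.08 (-0.44 to 0.60, adjusted p 0.900). The 2 comparisons share the medium libraries. Each of the 5 calls was kept in 13 of 14 alternative settings in both comparisons, the exception being the groups by title. Over all genes the calls rose from 59 to 311 with the NKG2D pair and from 107 to 604 with the DNAM-1 pair without medium replicate 3, and they fell to as few as 31 and 26 without an antibody library.

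The values by library show the same split between Nr4a3 and the other factors. Egr2 was at 522, 398 and 318 TPM in medium and at 45.5 to 82.4 TPM in the 6 antibody libraries. Egr3 was at 464, 381 and 278 TPM in medium and at 69.8 to 105 TPM in the antibody libraries, and Nr4a2 at 230, 183 and 155 TPM and at 36.3 to 57.5 TPM. Nr4a3 was at 88.5, 80.5 and 67.1 TPM in medium and at 48.5 to 87.7 TPM in the antibody libraries, with overlap. Nab2 was at 45.5, 34.0 and 70.1 TPM in medium and at 39.3 to 51.5 TPM with antibodies. In medium, replicate 1 was the highest and replicate 3 the lowest library for all 6 transcription factors.

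Between the 2 antibody pairs 0 members were called by limma, where 0.0146% of all genes were called, and 0 had an unadjusted p under 0.05, against 1.22% of all genes. Differences ran from -0.20 for Nr4a1 (95% interval -0.70 to 0.29) to 0.16 for Nab2 (-0.36 to 0.68), with 0.02 for Egr1 (-0.40 to 0.44).

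Medium and antibody libraries differed in NR4A composition. Nr4a1 held 68.9% ± 0.353 of summed NR4A TPM in medium, 43.6% ± 3.80 with the NKG2D pair and 42.7% ± 0.512 with the DNAM-1 pair, and Nr4a3 held 9.17% ± 0.502, 32.3% ± 1.77 and 33.2% ± 1.78. Egr1 held 70.1% ± 1.58, 65.9% ± 3.06 and 65.0% ± 2.14 of summed EGR TPM.

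**Figure D4:**
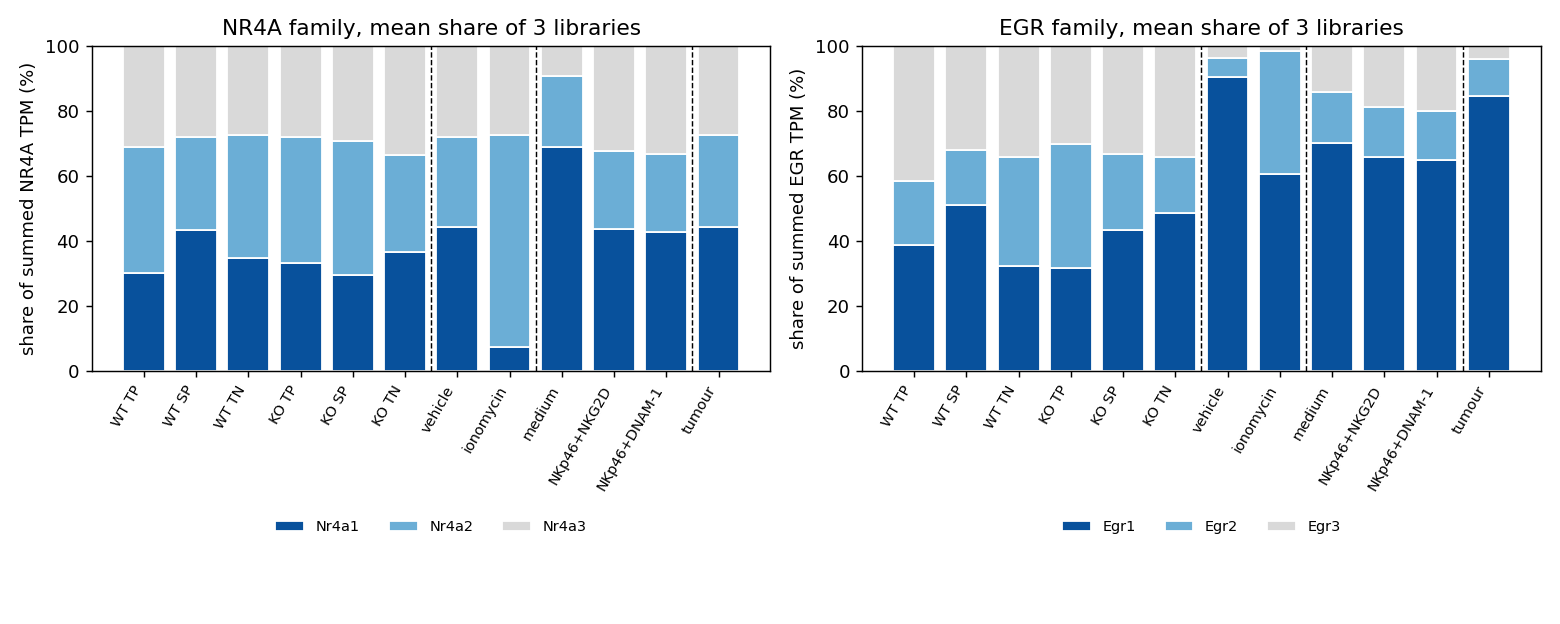
Share of each paralog in the summed TPM of its family, in percent, as the mean of 3 libraries per group; the left panel shows Nr4a1, Nr4a2 and Nr4a3, the right panel Egr1, Egr2 and Egr3, and dashed lines separate the 4 tables. Nr4a1 holds 68.9% in medium and 7.32% with ionomycin, where Nr4a2 holds 65.4%.

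Other immediate-early genes also fell with antibodies. Of 27 tested, 10 were called in each comparison, 9 lower and 1 higher. With the NKG2D pair the largest falls were those of Fos (-2.64, adjusted p 0.000711), Zfp36 (-2.27, adjusted p 0.000711) and Ier2 (-1.93, adjusted p 0.00318). With the DNAM-1 pair Fos differed by -2.34 (adjusted p 0.00164) and Zfp36 by -2.08 (adjusted p 0.00133). Tnfaip3, an inhibitor of NF-kappaB signalling, was the gene called higher (0.51 and 0.62, adjusted p 0.0390 and 0.0149). The list median was -0.79 and -0.61, against -0.04 and -0.04 for all genes. Fos was at 82.6 ± 17.5 TPM in medium and at 12.4 ± 2.96 and 15.4 ± 2.56 TPM with the antibodies.

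Among 19 genes linked to NR4A or EGR factors, Lag3 rose by 2.81 and 2.66 (adjusted p 0.000596 and 0.00101) and Tnfrsf9 by 0.77 and 0.98 (adjusted p 0.00144 and 0.000519), while Fasl fell by 0.72 and 0.85 (adjusted p 0.0390 and 0.0158). Genes of the calcium and NFAT list (13 tested), the ERK list (11 tested) and the partner and corepressor list (8 tested) had 0 called in either comparison. T cell markers summed to 27.6 to 71.6 TPM in medium, to 20.8 to 28.6 TPM with the NKG2D pair and to 20.1 to 39.6 TPM with the DNAM-1 pair. Of the 6 listed T cell markers 2, 2 and 3 were at 0 throughout, and the mean of Cd3e was 19.9, 4.25 and 5.63 TPM. The medium libraries ran from 4.54 to 31.4 TPM for Cd3e. Means of Cd3g were 21.1, 13.5 and 15.3 TPM and those of Cd3d 8.33, 7.39 and 8.68 TPM. B cell and plasma cell markers summed to 184 to 223 TPM in medium and were lower without overlap with both pairs, at 124 to 169.9 and 152 to 179.8 TPM, mostly Ighm (202, 148 and 158 TPM on average). Epithelial markers were at 0 in medium and at 0.99 to 2.27 and 0.81 to 4.33 TPM with the pairs. The monocyte, macrophage and dendritic cell, neutrophil and red cell sums overlapped between medium and both pairs. Their part in the member values was not tested.

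**Figure D5:**
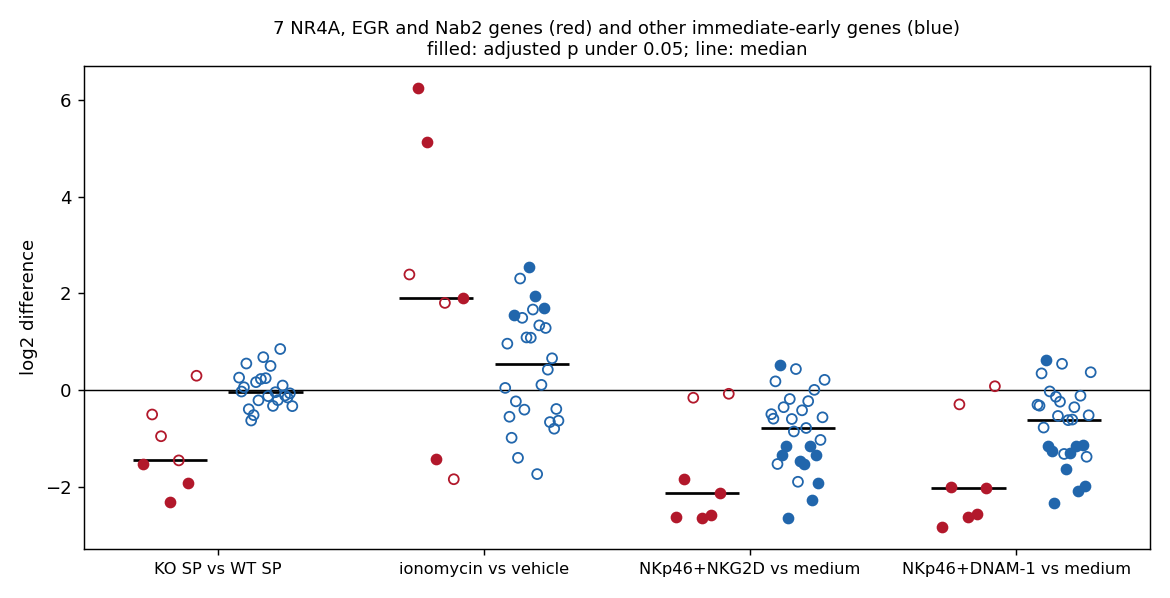
Log2 differences of the 7 members (red) and of the other immediate-early genes tested (blue) in 4 comparisons, on the log2(TPM + 1) scale; filled points have an adjusted p under 0.05, open points do not, and lines are medians. In SP cells 3 members and 0 of 23 other genes are filled, where 1.35% of all tested genes were called. With ionomycin 4 of 7 members and 4 of 26 other genes are filled, where 2.91% of all tested genes were called. With each antibody pair 5 of 7 and 10 of 27 are filled, where 0.431% (NKG2D pair) and 0.782% (DNAM-1 pair) were called.

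In NK cells from B2m-deficient MC38 tumours all 3 NR4A genes were abundant. Nr4a1 was at 807, 849 and 748 TPM in the 3 libraries, place 193 of 18545 genes above 0. Nr4a2 was at 652, 514 and 398 TPM and Nr4a3 at 698, 481 and 362 TPM, both highest in replicate 1. Nr4a1 held 44.4% ± 6.27, Nr4a2 28.2% ± 1.93 and Nr4a3 27.5% ± 4.36 of a summed 1836 ± 324 TPM.

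Among the EGR genes of the tumour libraries Egr1 was the most abundant. Egr1 was at 146, 312 and 250 TPM, Egr2 at 19.7, 21.0 and 54.2 TPM and Egr3 at 13.9, 4.54 and 8.75 TPM. Egr1 held 84.6% ± 6.85 of summed EGR TPM. Nab2 was at 38.3, 42.1 and 19.9 TPM. Fos was at 414 ± 42.8 TPM in the same libraries. Markers of epithelial tumour cells summed to 0 to 2.71 TPM, and all 5 neutrophil markers were at 0. T cell markers summed to 4.42 to 14.0 TPM, with Cd3d at a mean of 5.97 and Cd3g at 2.76 TPM and 3 of the 6 listed, Cd3e among them, at 0. All 8 monocyte, macrophage and dendritic cell markers had a mean of at least 1 TPM and summed to 199.7 to 301 TPM, of which Itgax gave 199.7, Lyz2 17.5 and Csf1r 3.26 TPM on average. B cell and plasma cell markers summed to 116 to 169 TPM, mostly Ighm (136 TPM on average), with 5 of 8 at 0, and red cell markers to 0 to 61.2 TPM. The part of these cells in the member levels was not tested. Without a control group in this table these levels are a description and were not tested.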

How the data were processed

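NK cells of 36 samples were profiled by RNA sequencing with an mRNA library kit, per the labels. The authors deposited TPM in 4 tables, made with STAR and RSEM on GRCm39 per the submitters' processing notes; versions and annotation are not given in the sources used here. Subset libraries sum to 934292 to 948786 TPM, other libraries to 1e+06. TPM keep no depth, so precision is the spread over 3 replicates, and count tests were not used.

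The log2(TPM + 1) scale was used, on which the change of a low transcript is understated. Genes whose mean reached 1 TPM in a table were fitted with limma 3.58.1 (R 4.3.3; group means, contrasts, variance trend), two-sided, with Benjamini-Hochberg adjustment per comparison and a threshold of 0.05. The filter was reapplied when a library was left out. The fit was run on simulated data in which 200 of the more abundant genes were changed by 2 on the log2 scale. It recovered 95.5% of them for KO SP against WT SP, 86.5% for the NKG2D pair and 34.7% for ionomycin. False calls numbered 12, 13 and 4. A member not called with ionomycin may therefore still differ. In the subset table the means of Egr1, Egr2, Egr3 and Nr4a3 over all libraries lay below the level required of a changed gene. The recovery for KO SP against WT SP therefore does not cover these members, and a member not called between subsets or genotypes may still differ too. Alternatives were another pseudocount (0.1), no filter, no trend, 2 rescalings, only the compared groups, a replicate block, groups by title and each library left out.

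The 7 members were named in every comparison, with up to 3 called genes per direction of each list and the genes most like each member. The members and lists were chosen with earlier results of these data known. Replicate numbers were not taken to pair samples, although the data column names carry the same numbers across groups. Whether a number marks 1 mouse is not given in the sources used here. Correlations of deviations were over 0.1 in 0 of 18 (subset), 1 of 3 (ionomycin) and 1 of 9 (antibody) pairs. In that order their means were 0.0104, 0.0620 and 0.0639 for the same number and -0.0052, -0.0310 and -0.0320 for other numbers. Deviations from a group mean cancel out within the group, so the second set largely follows from the first and is no separate baseline. Libraries of the same number may still not be independent. The labels give 1 batch date for all libraries of a table; what the date marks is not given in the sources used here, so batches within a table were not tested. Promoters came from RefSeq (GRCm38.p6), whose coordinates were not applied to the deposited values.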

Additional observations from a re-analysis of the deposited data

How the results depend on the processing

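In SP cells the genotype comparison called 3 members, and 1 to 3 with a library left out. With ionomycin it was 4 members, 2 without the filter on low values, 2 without a variance trend, and 1 to 6 with a library left out. With the titles as groups, the antibody comparisons each called 0 members in place of 5, where 0 (NKG2D pair) and 1 (DNAM-1 pair) of all tested genes were called. In all other settings run, the count of called members stayed within 1.5 times the count reported, and no called member changed sign. Egr3 in SP cells lost its call without the filter (adjusted p 0.0743) and with only the compared groups (0.0681). Replicate number as a block called 5 members with ionomycin, adding Nr4a1 (adjusted p 0.0484), and changed no other count of members. Over all genes, the block raised the calls of the antibody pairs from 59 to 239 and from 107 to 528. Counts over all genes moved more. With ionomycin 418 became 185 without the filter, 172 without a trend, and 43 to 712 with a library left out, highest without vehicle replicate 3 and lowest without ionomycin replicate 3. For the NKG2D pair 59 became 37 with only the compared groups, 0 by titles, and 31 to 311 with a library left out. For the DNAM-1 pair 107 became 38, 1 and 26 to 604, and 45 without the filter. For both pairs the highest count came without medium replicate 3. Between genotypes, using only the compared groups lowered 191 to 91 in TP, 162 to 84 in SP and 86 to 32 in TN cells, and a library left out lowered them to as few as 108, 88 and 52. Between WT subsets it lowered 157 to 43 (TN against TP), 46 to 6 (TN against SP) and 23 to 12 (SP against TP), and a library left out gave as few as 102 and 23 in the first 2 of these. For KO SP against TP cells 24 became 41 without the filter, and for KO TN against TP cells 63 became 41 without KO TP replicate 2. Median-of-ratios rescaling moved the split of calls in KO against WT TP cells from 118 higher and 73 lower to 94 and 93, with 0 members called in either. No rescaling moved the median of all genes by more than 0.1. Depth is unknown, so differences of transcripts near 1 TPM, such as Egr2 and Egr3 in KO subsets, are the least certain.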
